A study of Sus scrofa with 35 samples.

Results

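The genes described here are a set of interferon-stimulated genes, named ISG15, MX1, MX2, IFIT1, IFIT3, OAS1, IRF1, RSAD2 and IFI6, measured in longissimus dorsi muscle of growing pigs. A member was any non-control probe whose gene name in the scanner files was one of these 9 names, in upper or lower case. The rule found 24 probes of 8 genes among the 60305 non-control probes of the array, of which 22516 could be given 1 of 10935 gene symbols. No probe carried the name RSAD2, but 2 probes named IRG6, an alias of RSAD2 in the RefSeq gene table that shares its transcript accession, are given separately as RSAD2. That addition was made after the names in the files had been seen.

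The study compared muscle of pigs kept at thermoneutrality (TN) with that of pigs exposed to heat stress (HS), in 3 genetic types. The muscle RNA of each pig was hybridised to its own one-colour Agilent porcine array, giving 35 arrays. Each breed had 6 arrays at each temperature, except that F1 pigs under HS had 5. All animals were castrated males that entered the climatic room at 11 weeks of age. Creole is a local tropical breed, Large White is a breed selected in temperate countries, and F1 is their cross. The TN pigs were slaughtered at 24 °C, before the room was warmed, and the HS pigs after 4 or 5 days of heat. The sample labels give 30 °C for the HS pigs and the husbandry protocol gives 32 °C. The TN and HS pigs were different animals, in other pens and slaughtered on other days. The HS pigs were slaughtered later and so were some days older, and the study reports that pigs ate less in the heat. Temperature, pen, day, age and feed intake therefore cannot be told apart. Pigs came in blocks of 4 littermates with 3 blocks per breed. The pigs of a pen came from different blocks, so that each block was split between the temperatures. The litter of each pig is not analysed here. The p-values therefore measure the spread between pigs as if they were unrelated, although the pigs of a block were siblings.

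Type I interferons are signals released by cells that sense foreign or misplaced nucleic acid. They bind the receptor pair IFNAR1 and IFNAR2, and transcription factors that include STAT2 and IRF9 then switch on a large shared set of antiviral genes. Muscle fibres, vessel cells and resident leukocytes can all carry out this response, which is why members of the set are usually read together.

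Values are log2 fluorescence intensities after quantile normalisation, so that a difference of 1 is a doubling, and levels of different probes are not compared with each other. All 24 probes passed the filter, which asked for detection (a signal well above background) on 75% or more of the arrays in 1 of the 6 groups. Of these, 22 were well above background on every one of the 35 arrays and the dimmest, an MX1 probe, on 32. Among the non-control probes, 58.4 to 75.9% were well above background on an array and none was saturated. The muscle label was matched by the data: all 14 measured skeletal muscle markers were detected on every array, with a mean of 17.98 ± 0.04 in TN and 17.86 ± 0.09 in HS (SD, n = 18 and 17). The 35 arrays lay on 5 slides. Slides 1 to 4 each held 8 arrays of all 6 groups, and slide 5 held 3 arrays.

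Where a gene had several probes, the brightest on average is called the leading probe and stands for the gene. The probes below are 60 bases long and are those that the results turn on. They show how far separate readings of a gene rest on separate stretches of its transcript. The IFIT3 pair holds a probe that passed the temperature test and one that did not. The OAS1 pair and the MX1 pair each gave the same low arrays from non-overlapping sequence. The ISG15 pair overlaps by 55 bases and differs at the base in capitals, T44C, counted from 1 at the 5′ end of the first ISG15 probe.
IFIT3 A_72_P543787: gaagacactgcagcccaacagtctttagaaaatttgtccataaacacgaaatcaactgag
IFIT3 A_72_P489821: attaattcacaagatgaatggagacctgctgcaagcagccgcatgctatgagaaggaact
OAS1 A_72_P223657: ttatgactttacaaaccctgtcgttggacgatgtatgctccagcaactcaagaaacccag
OAS1 A_72_P719688: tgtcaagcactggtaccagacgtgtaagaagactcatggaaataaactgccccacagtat
MX1 A_72_P444250: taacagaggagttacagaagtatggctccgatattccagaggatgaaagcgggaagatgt
MX1 A_72_P487406: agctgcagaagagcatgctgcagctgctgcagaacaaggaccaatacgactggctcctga
ISG15 A_72_P441219: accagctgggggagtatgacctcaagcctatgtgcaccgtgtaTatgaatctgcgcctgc
ISG15 O11065: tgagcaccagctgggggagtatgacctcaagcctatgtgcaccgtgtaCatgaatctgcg

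Probes of the same gene mostly moved together. Deviations from the group means correlated across the 35 arrays with r = 0.95 to 1.00 among the 7 MX1 probes, 0.95 between the OAS1 probes, 0.99 between the ISG15 probes, 0.90 to 0.96 among the IFIT3 probes and 0.84 to 0.96 among the IFIT1 probes. Of the MX1 probes, 3 overlapped each other by 45 to 57 bases and are not separate readings. The exceptions were MX2 and IRF1. The MX2 probe A_72_P444240 followed the other two with r = 0.04 and 0.12, and the IRF1 probe O14559, named Irf1 in the files, followed its partners with r = -0.17. The IFI6 gene had a single probe, whose description in the files is a bovine transcript.

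IFIT1 binds foreign RNA and holds back its translation, and in the RefSeq gene order IFIT1 and IFIT3 lie next to each other. IFIT3 was the one member that passed the temperature test. Its level in TN muscle ran from 9.08 through a median of 9.86 to 10.76, and in HS muscle from 9.63 through 10.23 to 11.33. The ranges overlapped, with 1 of 17 HS arrays above every TN array and 4 of 18 TN arrays below every HS array. In a model with breed and temperature, IFIT3 was 0.44 ± 0.14 higher in HS on the log2 scale (SE, n = 17 and 18, limma with Benjamini-Hochberg adjustment over 41517 probes, adjusted p = 0.026). Of the 17 HS pigs, 15 lay above the TN mean of their own breed. Of the IFIT3 probes printed above, A_72_P543787 gave 0.43 (adjusted p = 0.0334) and A_72_P489821 gave 0.30 (adjusted p = 0.0912). As a plain difference of means, not adjusted for breed, the leading IFIT3 probe gave 0.52, 0.06, 0.43 and 0.72 within slides 1 to 4. Within slide 5 it gave 0.50. That slide held 1 Creole HS array against 2 Large White TN arrays, so that breed and temperature cannot be told apart there.

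Leukocyte markers also differed with temperature. Of 20 such markers measured, 18 were higher in HS and 6 passed the test, all of them upward. The 5 with the smallest p were the Fc receptor gene FCGR3A (0.96, limma, adjusted p = 0.00064), LAPTM5 (1.26, adjusted p = 0.000896), the macrophage growth factor receptor CSF1R (0.93, adjusted p = 0.00487), the T cell receptor chain CD3G (0.48, adjusted p = 0.0148) and TYROBP (0.98, adjusted p = 0.0173). PTPRC, which encodes the pan-leukocyte antigen CD45, differed by -0.02 (limma, adjusted p = 0.906), and its 2 other probes had the opposite sign. The mean level of the 20 markers ran from 7.59 to 9.65 in TN and from 8.64 to 9.94 in HS. The T helper cell marker CD4 was near the detection limit, being well above background on 8 of 35 arrays. Of the other marker lists, 6 of 13 connective tissue markers rose, 1 of 4 plasmacytoid dendritic cell markers rose, 1 of 9 endothelial and 3 of 5 blood cell markers fell, none of 8 adipocyte markers was called, and 1 of 14 skeletal muscle markers rose and 5 fell. With the leukocyte mean as a covariate, the IFIT3 difference was 0.25 (adjusted p = 0.313), and with the brightness of the array as a covariate it was 0.39 (adjusted p = 0.132). In muscle tissue, fewer cells of a type and less RNA per cell cannot be told apart, and the part of leukocytes in the result was not tested.

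The other members were higher in HS by amounts that did not pass the test. IFI6, a small mitochondrial and membrane protein that is among the most inducible targets of type I interferon, ran from 13.71 through 14.64 to 15.52 in TN and from 13.85 through 14.99 to 16.55 in HS, a difference of 0.46 ± 0.18 (SE, limma, adjusted p = 0.0732). IFIT1 ran from 7.97 through 8.80 to 9.52 in TN and from 8.13 through 9.16 to 10.26 in HS, a difference of 0.31 ± 0.14 (SE, adjusted p = 0.113). In both genes, 3 HS arrays lay above every TN array. MX2 differed by 0.27 ± 0.16 (SE, adjusted p = 0.248), IRF1 by 0.16 ± 0.16 (adjusted p = 0.52), ISG15 by 0.22 ± 0.21 (adjusted p = 0.517) and MX1 by 0.39 ± 0.40 (adjusted p = 0.538). OAS1 had the smallest difference, 0.06 ± 0.30 (adjusted p = 0.922). RSAD2, read through IRG6, differed by 0.30 ± 0.21 (adjusted p = 0.342).

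The levels behind these values overlapped in each case. MX1 ran from 8.54 through 12.14 to 13.30 in TN and from 9.06 through 12.41 to 14.15 in HS, and MX2 from 6.45 through 7.43 to 8.40 in TN and from 6.66 through 7.54 to 8.65 in HS. ISG15 ran from 11.10 through 12.03 to 13.72 in TN and from 11.53 through 12.15 to 13.69 in HS, so that its highest array was a TN one. IRF1 was likewise highest in TN, running from 8.12 through 8.92 to 10.52 there and from 8.60 through 9.17 to 10.26 in HS. OAS1 ran from 8.88 through 9.83 to 10.48 in TN and from 6.12 through 10.04 to 11.63 in HS, and 5 of 17 HS arrays lay above every TN array while the lowest array was also an HS one. RSAD2 ran from 6.68 through 7.98 to 8.83 in TN and from 6.99 through 8.07 to 9.70 in HS.

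By group, mean IFIT3 was ordered from 9.53 ± 0.39 in Creole TN through 9.97 ± 0.25 in Large White TN, 10.06 ± 0.54 in F1 TN, 10.24 ± 0.58 in Large White HS and 10.30 ± 0.29 in Creole HS to 10.33 ± 0.28 in F1 HS (SD, n = 6, and 5 in F1 HS). Creole TN also had the lowest group mean for ISG15 (11.94 ± 0.70), MX1 (11.35 ± 0.83), MX2 (6.96 ± 0.54), IFIT1 (8.63 ± 0.36), IRF1 (8.81 ± 0.45) and IFI6 (14.22 ± 0.40), while that of OAS1 was lowest in Large White HS (9.14 ± 1.69). F1 HS had the highest group mean for ISG15 (12.72 ± 0.63), IFIT1 (9.41 ± 0.29), OAS1 (10.51 ± 0.82), IFI6 (15.30 ± 0.46) and MX2 (8.04 ± 0.55). MX1 was highest in F1 TN (12.51 ± 0.59) and IRF1 in Large White HS (9.38 ± 0.35).

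Counted together, 1 of the 8 member genes with a probe was called for HS against TN, beside 18.3% of all 9141 genes taken by their leading probe, and 2 of the 24 member probes beside 16.0% of all probes. Called members were therefore no more frequent than genes in general. The signs were one-sided all the same: the 8 leading probes were all higher in HS, as were 23 of 24 probes, the exception being the discordant MX2 probe at -0.05, while 43.3% of all genes were higher in HS. Since the members move together from pig to pig, as shown further on, these are not 8 separate readings. The median difference over the 8 genes was 0.29, against -0.03 over all genes. By plain means, not adjusted for breed, all 8 were higher in HS within slides 1 and 4, and 5 of 8 within slides 2 and 3. Within slide 5, with 1 Creole HS array against 2 Large White TN arrays, it was 2 of 8. No member was called as lower. The sign of OAS1 was not stable, running from -0.04 to 0.28 as single arrays were left out, and that of IRF1 turned to -0.21 with the leukocyte mean as a covariate (adjusted p = 0.368).

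**Figure D1:**
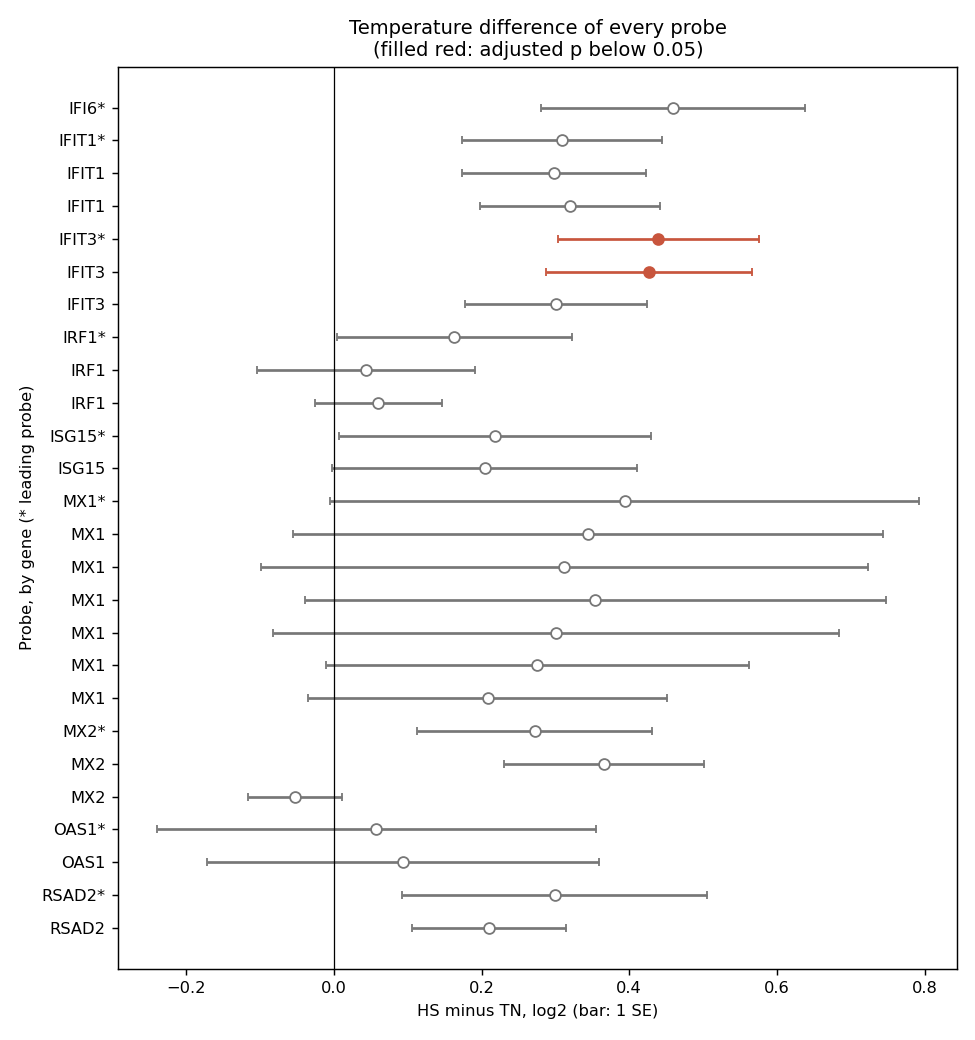
Difference between HS and TN for each of the 24 member probes and the 2 probes named IRG6 (RSAD2), on the log2 scale with 1 SE, from the model with breed and temperature; stars mark leading probes and filled red points an adjusted p below 0.05. Apart from 1 MX2 probe every point lies above 0, and 2 of the 3 IFIT3 probes are filled.

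The difference was also taken within each breed. In Creole pigs IFIT3 ran from 9.08 through 9.53 to 10.07 in TN and from 9.82 through 10.40 to 10.55 in HS, a difference of 0.77 (limma, adjusted p = 0.0659), with overlapping ranges. The 8 leading probes differed there by 0.31 to 0.83, with a median of 0.49, and none of the 24 probes passed the test, with 4 at an unadjusted p below 0.05, beside 1.91% of all probes and 2.21% of all genes called. That background rests on single pigs, since 792 probes were called with all arrays, 0 without Creole TN replicate 1 and 1663 without Creole HS replicate 2. In F1 pigs the differences ran from -0.06 to 0.63 and in Large White pigs from -0.71 to 0.37. No member probe was called in either, with 0 at an unadjusted p below 0.05, beside 0.00482% of all probes called in each, and 0.00% of all genes in F1 and 0.0109% in Large White. Leaving out 1 array took the 2 probes called in Large White to between 0 and 1064 (the highest without Large White TN replicate 6), and the 2 in F1 to between 0 and 55 (the highest without F1 TN replicate 6). The test of whether the temperature difference depended on breed called no member, with 0 of 24 probes at an unadjusted p below 0.05, and no probe of the array (0.00%). The larger values in Creole are therefore not shown to differ from those in the other breeds.

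MX1 and MX2 are dynamin-like GTPases that block the entry and replication of viruses, and their genes lie on the same chromosome with 1 non-coding gene between them in the RefSeq order. MX2 was the one member that passed a test between breeds. It ran from 6.45 through 7.21 to 8.24 in the 12 Creole pigs, from 7.17 through 8.07 to 8.65 in the 11 F1 pigs and from 6.66 through 7.19 to 8.65 in the 12 Large White pigs. The F1 pigs sat higher than both parental breeds, with overlapping ranges. F1 exceeded Creole by 0.81 ± 0.20 (SE, limma, adjusted p = 0.0485) and Large White by 0.77 ± 0.20 (adjusted p = 0.0618). A second MX2 probe gave 0.58 against Creole (adjusted p = 0.122), and the discordant probe A_72_P444240 gave 0.21 (adjusted p = 0.338). The first call sat at the threshold: it was lost in 27 of the 35 fits that left out 1 array (adjusted p from 0.0173 to 0.0979) and in 8 of 17 other settings. Within slides 1 to 4 the plain F1 to Creole difference of means in MX2, not adjusted for temperature, was 1.54, 0.27, 0.06 and 0.82. MX1 differed between F1 and Large White by 0.84 ± 0.49 (SE, adjusted p = 0.581), a value that was 0.56 without Large White TN replicate 2, 0.59 without Large White HS replicate 2 and 1.19 without F1 HS replicate 3, the pigs with the lowest MX1.

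The 1 of 8 members called between F1 and Creole stands beside 0.372% of all genes and 0.477% of all probes. All 8 members, and all 24 probes, were nevertheless higher in F1 than in Creole, with a median difference over the genes of 0.48 and 8 probes at an unadjusted p below 0.05, while 47.7% of all genes were higher in F1. This direction did not hold on every slide: 7, 7 and 8 of the 8 members were higher in F1 within slides 1, 2 and 4, but 1 of 8, MX2, within slide 3, where the others ran down to -0.91 for ISG15. These within-slide values are plain differences between means of 2 or 3 arrays per breed. The share of HS arrays differed between the breeds on each of these slides, and no adjustment for temperature was made. Between F1 and Large White no member was called, with 3 of 24 probes at an unadjusted p below 0.05, beside 0.525% of all probes and 0.295% of all genes, and 7 of the 8 genes were higher in F1. Between Creole and Large White none was called either, with 0 probes at an unadjusted p below 0.05, beside 3.64% of all probes and 3.79% of all genes, and the 8 differences ran from -0.38 to 0.11. These 3 comparisons share their arrays.

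**Figure D2:**
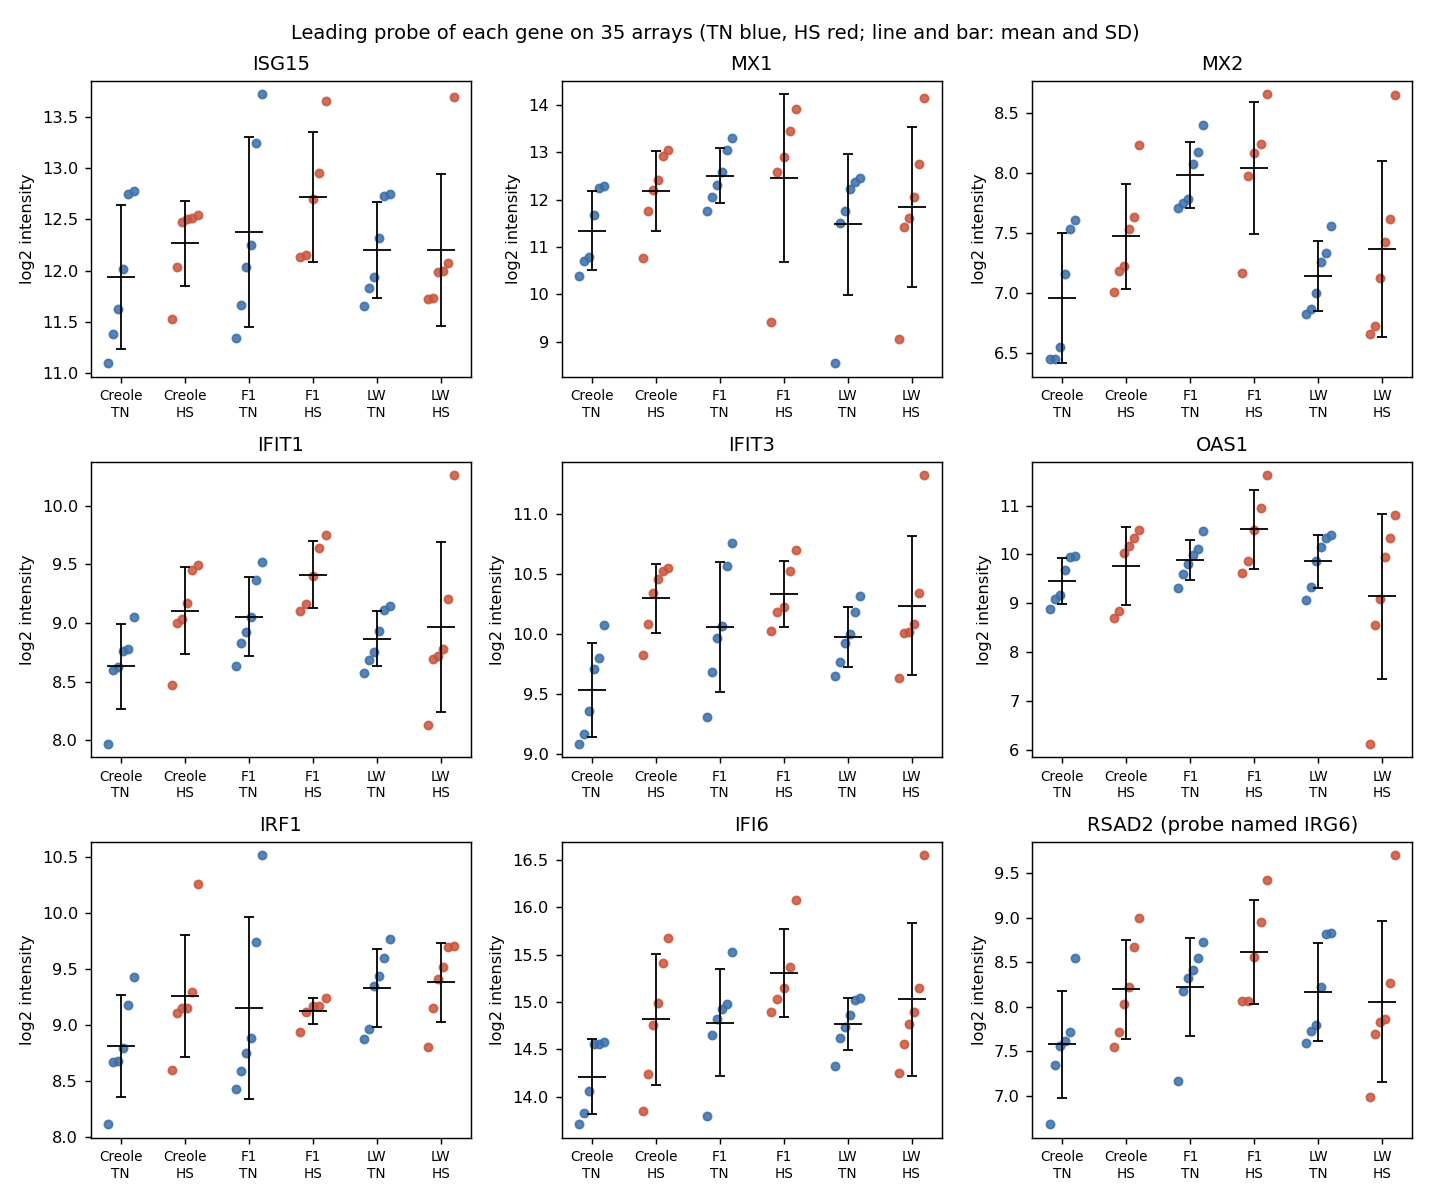
Log2 intensity of the leading probe of each member, and of RSAD2 read through IRG6, on the 35 arrays by breed and temperature (LW is Large White), with the mean and SD of each group. Groups overlap for every gene and F1 pigs sit high for MX2. By eye, single pigs stand far from their group, for example for MX1, OAS1, ISG15, IRF1 and RSAD2.

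The spread between pigs of the same group was the main feature of these genes. Across the 6 groups, the median of all 41517 kept probes had a within-group SD of 0.23. MX1 had 1.27, more than 99.7% of all probes. OAS1 had 0.90, ISG15 0.67, IFI6 0.56, MX2 0.50, IRF1 0.49, IFIT1 0.42 and IFIT3 0.41, the last still above 88.1% of all probes. The values of MX1 and OAS1 include a few arrays far below the rest, described further on, and were not recomputed without them. The variance between groups was 12.0% of the total for ISG15 and 13.2% for MX1, and 43.5% for MX2, beside a median of 20.5% over all probes. These shares are not adjusted for the number of groups, so they lie above 0 even where groups do not differ. Placing the 6 groups in the order of their means, 42 of the 45 steps between neighbouring groups over the 8 members and RSAD2 were smaller than the pooled SD of the groups, and the ranges overlapped at all 45.

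ISG15 encodes a ubiquitin-like protein that is attached to other proteins during the antiviral response. In Large White HS muscle, 5 pigs lay between 11.73 and 12.08 and replicate 6 reached 13.69. In F1 TN muscle ISG15 ran from 11.34 through 12.14 to 13.72, and in F1 HS muscle the 5 values were 12.13, 12.15, 12.70, 12.96 and 13.66. The highest pigs thus belonged to both temperatures. Large White HS replicate 6 was among the 5 highest arrays for 7 of the 8 members, with IRF1 as the exception, and reached 16.55 for IFI6, 11.33 for IFIT3 and 9.70 for RSAD2. F1 HS replicate 2 was among the 5 highest for 6 of the 8. At the other end, Creole TN replicate 6 was among the 5 lowest for 7 of the 8 and Creole TN replicate 4 for 6. Creole TN replicate 1 and Creole HS replicate 5 were each among the 5 lowest for 5 of the 8, so that the low end also held an HS pig.

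MX1 had a second kind of variation. Of the 35 arrays, 3 lay well below the rest: Large White TN replicate 2 at 8.54, Large White HS replicate 2 at 9.06 and F1 HS replicate 3 at 9.41, while the other 32 ran from 10.39 through a median of 12.27 to 14.15. On each of the 7 MX1 probes these 3 arrays were below all others, including the 2 probes printed above, which share no sequence with the rest. For A_72_P487406 they read 5.54, 5.51 and 5.69 against a median of 7.62 on the others. The other members were less extreme there, although the Large White arrays were low in several. Counted from the lowest of 35, IFIT3 ranked 9, 5 and 17 on these 3 arrays, at 9.77, 9.63 and 10.03, ISG15 ranked 6, 8 and 19, and IFI6 13, 10 and 26. The 3 arrays came from 2 breeds and both temperatures, and all lay on slide 2, where the remaining 5 arrays had MX1 levels of 10.39, 11.43, 11.76, 12.29 and 13.30. The part of the slide in this was not tested. The HS minus TN difference in MX1, by plain means not adjusted for breed, was -0.72 within slide 2 and 1.15, 0.26 and 1.00 within slides 1, 3 and 4.

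OAS1, which makes the 2′-5′-linked oligoadenylates that switch on RNase L, was low on a single array. Large White HS replicate 5 read 6.12, while the other 34 arrays ran upward from 8.55 with a median of 9.95. The second OAS1 probe read 5.97 on that array against 7.62 or more on the others. The same pig had the lowest IFIT1 but 1 in the series, at 8.13, and the lowest RSAD2 but 1, at 6.99. MX2 at 6.66 had 3 arrays below it, IFI6 at 14.25 had 6 and ISG15 at 11.73 had 8. IFIT3 at 10.08 and MX1 at 12.07 were near the middle, and IRF1 at 9.71 was high, with 30 arrays below it. The difference between HS and TN in Large White pigs was -0.71 for OAS1 with this array and -0.11 without it (adjusted p = 0.941).

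**Figure D3:**
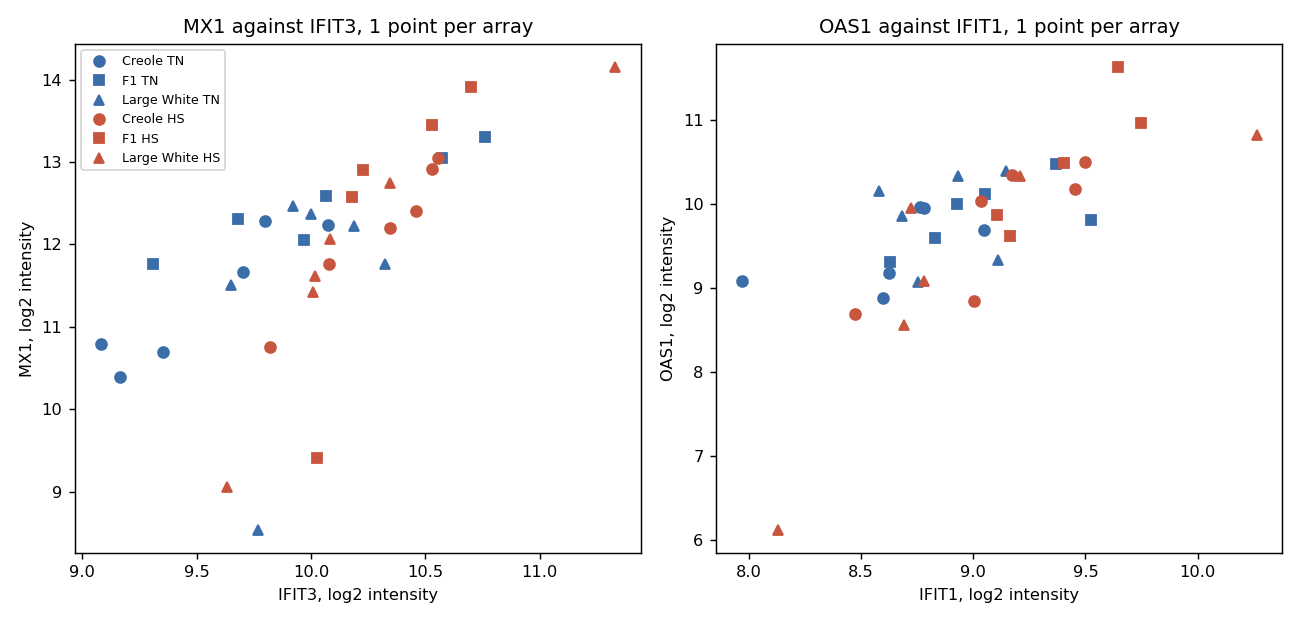
MX1 against IFIT3 (left) and OAS1 against IFIT1 (right), log2 intensity of the leading probes, 1 point per array, coloured by temperature and shaped by breed. On the left, 3 arrays lie below 9.5 for MX1 with IFIT3 at 9.63, 9.77 and 10.03, and on the right 1 Large White HS array lies at 6.12 for OAS1.

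To see whether the members moved together from pig to pig, the level on each array was taken as its deviation from the mean of its group, and all 28 pairs of leading probes were correlated over the 35 arrays. Pearson's r was tested with 100000 permutations within groups, two-sided, and adjusted over the 28 pairs. For IFIT3 and ISG15 r was 0.88 and Spearman's rho 0.84, and for IFIT1 and ISG15 r was 0.84 and rho 0.87, each with a permutation p of 1e-05, the smallest that these permutations can give. IFI6 followed IFIT1 with r = 0.84, ISG15 with 0.83 and IFIT3 with 0.80. Among the 7 members other than IRF1, all 21 pairs were positive, from 0.45 to 0.88, and all 21 had an adjusted permutation p below 0.05 by r, the largest being 0.0451 for MX1 and OAS1, and 20 by rho. The pair of MX2 and OAS1 missed it by rho (rho = 0.33, adjusted p = 0.1).

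Leaving out the 2 arrays farthest from the median of the first gene of each pair, r for these 21 pairs ran from 0.32 to 0.84, and 15 of the 21 had an adjusted permutation p below 0.05. The 6 lost were 5 of the 6 pairs of MX2, with r = 0.32 to 0.44, and MX1 with OAS1, so these relations rest in part on the most extreme arrays. With slide means removed as well, r ran from 0.51 to 0.89. Within slides 2, 3 and 4 all 21 pairs were positive, with medians of 0.70, 0.71 and 0.92, and within slide 1 there were 19 of 21 with a median of 0.58. Each of those holds 8 arrays.

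IRF1, a transcription factor that answers interferon gamma and other inflammatory signals as well as type I interferon, stood apart. Its 7 pairs with the other members had r from -0.17 (MX2) to 0.45 (ISG15), and 3 of the 7 had an adjusted permutation p below 0.05, those with ISG15, IFIT3 and MX1. Its highest levels were 10.52 in F1 TN replicate 2 and 10.26 in Creole HS replicate 1. IRF1 instead followed the leukocyte markers. Its deviations correlated with those of the mean of the 20 markers with r = 0.69 and rho = 0.64 (permutation test, p = 0.00013, adjusted p = 0.00312 over 24 relations), and with r = 0.76 without the 2 arrays farthest from the median of that mean. No other member passed this test: their r with the leukocyte mean ran from -0.31 for MX2 to 0.37 for IFIT3 (adjusted permutation p = 0.613 for IFIT3). No member correlated with array brightness (r from -0.21 to 0.28) or with the mean of 9 endothelial markers (r from -0.19 to 0.05) at an adjusted permutation p below 0.05.

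RSAD2, whose product viperin makes a chain-terminating nucleotide, moved with the members other than IRF1, with r from 0.56 for MX1 to 0.90 for IFIT1. Read through IRG6, its deviations followed IFIT1 with r = 0.90 and rho = 0.87 and ISG15 with r = 0.80 (adjusted permutation p = 2e-05 for each, over 8 pairs), while its r with IRF1 was 0.04 (adjusted p = 0.844).

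**Figure D4:**
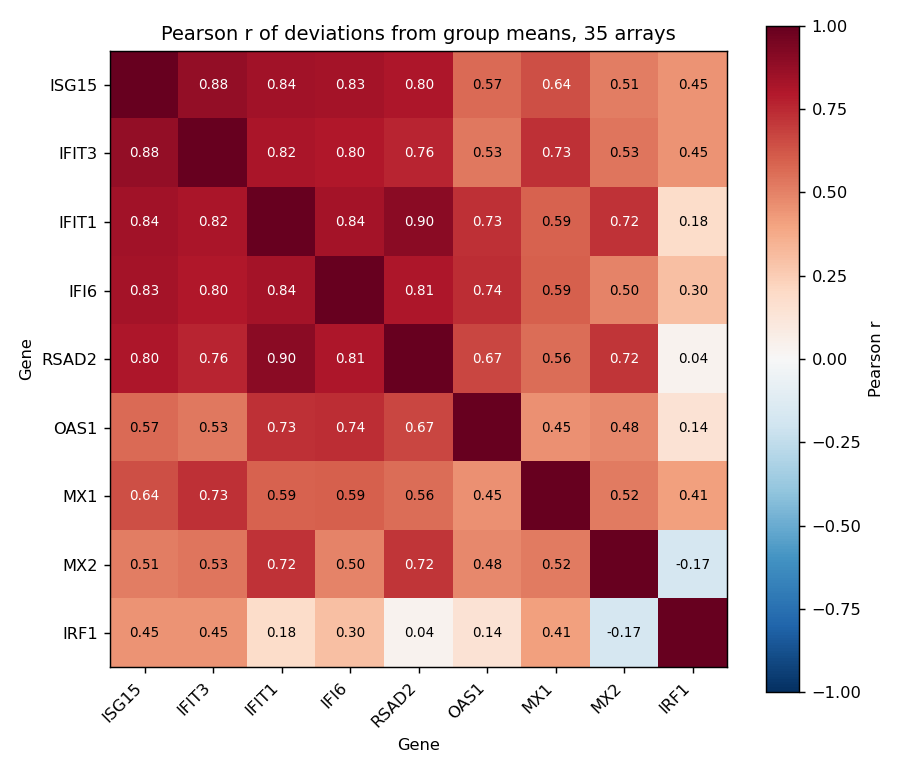
Pearson r between the leading probes of the members, and RSAD2 read through IRG6, computed on deviations from the group mean over 35 arrays; red is positive and blue negative. ISG15, IFIT3, IFIT1, IFI6 and RSAD2 form a block of r from 0.76 to 0.90, and the IRF1 row is pale, from -0.17 to 0.45.

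The 10 other named genes whose deviations were closest to the mean deviation of the 8 members, among 9127 compared, were HERC5 (r = 0.91), IFIH1 (0.90), OAS2 (0.89), ISG12(A) (0.87), IFIT5 (0.86), IFI44 (0.86), DHX58 (0.85), ZNFX1 (0.82), PARP12 (0.82) and ZBP1 (0.80). These r are a description over 35 arrays. HERC5 is the ligase that attaches ISG15, and IFIH1 and DHX58 are cytoplasmic sensors of double-stranded RNA. Of the 10, 8 were in the lists of interferon genes used here, and the median r over all compared genes was 0.02. The values for IFI44, OAS2 and IFIT5 belong to probes other than their leading ones, which had r = 0.29, 0.83 and 0.76. At the probes listed, HERC5 (0.41, adjusted p = 0.0479) and IFIT5 (0.32, adjusted p = 0.0322) were higher in HS by limma and the other 8 were not called. The leading IFIT5 probe also gave 0.32 but was not called (limma, adjusted p = 0.0513).

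For temperature, 18 of the 83 other interferon pathway genes measured were called (21.7%), beside 18.3% of all genes. Of 30 other interferon-stimulated effectors among them, 7 rose in HS and none fell, beside 8.34% of all genes called upward and 1 of the 8 members, and 25 were higher, with a median of 0.18. The 5 with the smallest p were TNFSF10, which encodes the death ligand TRAIL (0.39 ± 0.08, SE, limma, adjusted p = 0.00228), the macrophage lectin SIGLEC1 (0.46 ± 0.10, adjusted p = 0.00313), IFIT2 (0.41 ± 0.13, adjusted p = 0.0317), TRIM25 (0.32 ± 0.11, adjusted p = 0.0398) and the exonuclease ISG20 (0.59 ± 0.20, adjusted p = 0.043). Of 17 nucleic acid sensors and adaptors, 5 rose and none fell, among them the endosomal receptors TLR7 (0.83 ± 0.20, adjusted p = 0.00487), TLR3 (0.34 ± 0.09, adjusted p = 0.0125) and TLR9 (0.25 ± 0.08, adjusted p = 0.0337), the DNA-sensing adaptor TMEM173 (0.23 ± 0.07, adjusted p = 0.0212) and the Toll-like receptor adaptor MYD88 (0.58 ± 0.20, adjusted p = 0.0454). These sensors had low r with the member mean, from 0.08 to 0.37.

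Signalling genes moved less evenly. Of 17 measured, 4 rose and 1 fell. STAT2 rose by 0.22 ± 0.07 (SE, limma, adjusted p = 0.0364), with 4 of its 5 other probes also called upward, PTPN6, a phosphatase of blood cells, by 0.92 ± 0.26 (adjusted p = 0.0156), PIAS1 by 0.14 ± 0.05 (adjusted p = 0.0444) and IRF5 by 0.71 ± 0.25 (adjusted p = 0.0457). The receptor kinase TYK2 fell by 0.27 on the log2 scale (adjusted p = 0.0222), although 2 of its 4 other probes had the opposite sign. IRF9 differed by -0.06 (adjusted p = 0.549) and IRF7, the amplifier of interferon production, by 0.36 (adjusted p = 0.0769). IRF7 was also the signalling gene with an r of 0.78 with the member mean.

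Among the interferons, IFNA1 and IFNB1 probes were well above background on 1 of 35 arrays and IFNE on 0, but IFNG on 34. IFNG was at 5.99 ± 0.12 in TN and 5.84 ± 0.12 in HS (SD), a difference of -0.15 ± 0.04 (SE, limma, adjusted p = 0.0157) with r = -0.12 with the member mean. Only 1 of the 2 IFNG probes passed the filter, and its level was close to background. For scale, the effector PARP9, at 5.63 in TN and 5.53 in HS, was well above background on 18 of 35 arrays. The receptor genes were not called: IFNAR1 differed by 0.30 (adjusted p = 0.0613), IFNAR2 by 0.10 (adjusted p = 0.0714), IFNGR1 by 0.13 (adjusted p = 0.304) and IFNGR2 by 0.17 (adjusted p = 0.3). The single IFNAR2 probe, known by its name in the files, read 17.70 in TN and 17.80 in HS, near the mean of the skeletal muscle markers. Whether it reads the receptor transcript was not tested. Of 13 genes known for their answer to interferon gamma, such as GBP1, CXCL9 and PSMB9, none was called by limma and 11 were higher in HS, with a median of 0.14 and a median r with the member mean of 0.31. Over the 30 other effectors that median r was 0.55.

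Between Creole and Large White, 4 of the 83 interferon pathway genes measured passed the test (4.82%), beside 3.79% of all genes and none of the members. XAF1, a pro-apoptotic interferon target, was -1.42 ± 0.22 in Creole relative to Large White (SE, limma, adjusted p = 0.000105), and TRIM26 was 0.51 ± 0.12 (adjusted p = 0.00918). SOCS3, a feedback inhibitor of cytokine signalling, was -1.69 ± 0.44 (adjusted p = 0.0218) and the adaptor TRAF6 was 0.57 ± 0.15 (adjusted p = 0.026). Of the leukocyte markers, CD3D was -0.64 (adjusted p = 0.00566) and CD8A -0.44 (adjusted p = 0.0193) on the same scale. XAF1 also exceeded its Creole level in F1 (adjusted p = 0.00535), the one effector of 30 called there.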

How the data were processed

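Muscle RNA of 35 pigs was hybridised to one-colour Agilent porcine arrays, and per the file headers the images were read with Feature Extraction 10.10.1.1. The deposited files hold the spot intensity of every probe, not normalised, with the authors' quality flags. A deposited table of log2 values, normalised by the authors, covers 40649 probes and was an alternative; its 35 columns each matched their own array. The flag columns (other) marked 105 outlier spots, which were left out. Median signal intensities were quantile-normalised and log2-transformed, spots of a probe averaged, and probes kept that were well above background on 75% or more of the arrays in 1 or more groups (41517). limma 3.58.1 in R 4.3.3 fitted breed and temperature, or 1 mean per group, with Benjamini-Hochberg adjustment over all kept probes at 0.05. Leading probes, named probes and pathway lists were used as stated in the report, with symbols from RefSeq Sscrofa11.1 for 37.3% of probes. The genes named are all members, the up to 5 called genes of lowest p in each list for HS minus TN and for Creole minus Large White (marker lists other than leukocytes are given as counts), the pathway genes STAT2, IRF9, IRF7, IFNAR1, IFNAR2, IFNGR1, IFNGR2 and PTPRC, and the 10 genes most like the members; some genes that this rule names are not reported here. Members and lists were chosen with earlier results of these data known. Alternatives were other scalings, background corrections and filters, the deposited table, array weights, slide blocks, covariates and leaving out each array; reading RSAD2 through IRG6, removing slide means and leaving out the 3 lowest MX1 arrays were added after seeing the data. The fit was tested on simulated data. The methods' model also holds pen, slaughter day and kinship, which were not used here. Array number limits the precision.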

Additional observations from a re-analysis of the deposited data

Results flagged for a closer look

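In each group of 5 or 6 arrays, the gap between an extreme array and its nearest neighbour was divided by the range of the group, for the 8 members and RSAD2 (54 combinations of gene and group, of which chance alone would single out about 2.7). For ISG15, Large White HS replicate 6 at 13.69 was apart from the next value of 12.08 by 0.822 of the range. For MX1, Large White TN replicate 2 at 8.54 was apart from the next value of 11.51 by 0.755 of the range. For RSAD2, F1 TN replicate 4 at 7.16 was apart from the next value of 8.18 by 0.648 of the range.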

How the results depend on the processing

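For HS minus TN, 1 member gene was called, and 2 were under median scaling, 2 under scaling to the spike-in controls, 3 with array weights and 0 with array brightness or the leukocyte mean as a covariate. IFIT3 was called in 15 of 17 such alternatives and in all 35 fits without 1 array, where the count ran from 1 to 3. IFIT1 and IFI6 joined it without Large White HS replicate 5 (adjusted p = 0.0473 and 0.0469), and IFI6 without Creole HS replicate 5 (0.0425). The 8 genes stayed higher in HS under every scaling tried, while the share of calls that were upward among all probes was 48.2%, 27.2% with 75th percentile scaling, 37.5% with the processed signal and 86.2% with spike-in scaling. For F1 minus Creole, 1 was called, and 0 under 75th percentile, median and spike-in scaling, the processed signal, no filter, slide as a fixed block, or TN or HS arrays only; without 1 array the count ran from 0 to 1. The upward share there was 63.1%, 50.8% with median and 45.4% with spike-in scaling. For F1 minus Large White, 0 were called, and 1 (MX2) with array weights or the leukocyte mean; without 1 array it ran from 0 to 1, being 1 without Creole TN replicate 1, Large White TN replicate 1, F1 HS replicate 3 or Large White HS replicate 6. In Creole the count without 1 array ran from 0 to 1, being 1 (IFIT3) without Large White HS replicate 6. In F1, in Large White, for Creole minus Large White and for the interaction, the count was 0 in all alternatives. Of the 28 pairs, 24 passed, 19 without the 2 farthest arrays and 23 with 75th percentile scaling. The causes were not tested. No paired analysis was possible because the labels give no litter or replicate numbers. The replicate numbers in this report only count the arrays of a group in the order of the samples, and pair no animals.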
